A study of Mus musculus with 37 samples.

Results

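The spliceosome removes introns from newly made transcripts, and its parts are ribonucleoproteins in which small nuclear RNAs are bound by a ring of Sm proteins (Snrpb, Snrpd1, Snrpd2, Snrpd3, Snrpe, Snrpf and Snrpg) or, on U6, by a ring of Sm-like LSm proteins. The SF3A and SF3B complexes hold the U2 particle at the branch site, SR proteins (Srsf) bind exons and recruit the machinery, and the Prpf proteins join the tri-snRNP and the activated complex. Mouse oocytes store maternal mRNA while they grow, fall silent in transcription at the fully grown germinal vesicle (GV) stage and restart it at zygotic genome activation, for which the 2-cell embryo is the main stage in this species.

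The splicing factor genes described here are the protein-coding genes whose symbols begin with Snrp, Sf3a, Sf3b, Srsf, Lsm or Prpf, apart from the imprinted gene Snrpn, and were found by name without use of their values. They numbered 58 of the 29294 genes listed in 4 RNA-seq tables, with 58 in the Hira GV oocyte table, 57 in each Cabin1 table and 56 in the Zscan4 table. The 58 were 11 Sm and U snRNP genes, 9 SF3A and SF3B genes, 11 SR protein genes, 13 LSm genes, 13 Prpf genes and Lsmem1, which encodes a membrane protein, matched by name alone and had fewer than 1 FPKM in every group mean.

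All mice were C57BL/6. Hira and Cabin1 are, with Ubn1, subunits of the chaperone that deposits histone H3.3 outside replication, and each was deleted with Zp3-Cre, a transgene active in growing oocytes of the female germline. ZH KO and CabZ KO oocytes carried floxed Hira or floxed Cabin1 on both alleles, and the controls, ZH Het and CabZ Het, were littermates that carried the same Cre and 1 floxed allele, so that no control was wild type. RNA-seq covered 4 libraries each of ZH Het and ZH KO GV oocytes, CabZ Het and CabZ KO GV oocytes, and CabZ Het and CabZ KO 2-cell embryos. The last experiment compared 3 libraries labelled Zscan4 overexpression (Zscan4 OE) with 4 GFP controls. There, wild-type GV oocytes received Zscan4d or GFP RNA by injection, were matured, activated without sperm and collected at the 2-cell stage. Ages were not given in the sources used here, nor was it stated whether the CabZ 2-cell embryos came from fertilisation or activation. ATAC-seq peak lists from 3 CabZ Het and 3 CabZ KO GV oocyte libraries were also used. According to the methods each RNA-seq library held a pool of 10 oocytes whereas the labels speak of single cells, and nothing ties libraries to separate females, so p-values measure the spread between libraries.

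Reads on genes numbered 7947414 to 15082556 per Het library of the 3 knockout experiments, 8996898 to 10869870 per KO GV library and 5819315 to 6330241 per CabZ KO 2-cell library, the shallowest group, whereas libraries of the Zscan4 experiment had 9885415 to 21869858. Cabin1 was lower in CabZ KO than in CabZ Het GV oocytes, at 0.0242 against 0.119 FPKM, and in CabZ KO 2-cell embryos, at 0.134 against 0.322, below the level tested in both. Hira had at most 14 reads in any ZH library, Het included, and gave no check of its label, while Cabin1 was lower in ZH KO (0.0864 FPKM) than in ZH Het (0.286) and Hira was lower in CabZ KO (0.0434) than in CabZ Het 2-cell embryos (0.233). Zscan4d was no higher in the embryos labelled Zscan4 OE (79.4 FPKM) than in those labelled GFP (117 FPKM), so that experiment compares libraries as labelled. The paper reports more Zscan4 after injection than without it, by qRT-PCR, immunofluorescence and western blot. Injected oocytes themselves were not sequenced. The oocyte marker list (12 genes, Zp3, Gdf9 and Bmp15 among them) was expressed in every library, and granulosa and cumulus markers summed to at most 12.6 FPKM in any library. Of genes marking the 2-cell stage, 8 of 8 tested rose in ZH KO oocytes, 3 of 6 in CabZ KO oocytes and 2 of 12 in CabZ KO 2-cell embryos, where 2 fell, and 1 of 12 fell in Zscan4 OE embryos.

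Levels are given as FPKM (fragments per kilobase, scaled to the reads of the library), with length taken over the whole gene from start to end as in the deposited tables, and differences as log2 fold changes (log2FC) on log2(FPKM + 1) with their standard errors. That scale understates the change of genes with low levels. A gene was tested when its mean over the libraries of the table reached 1 FPKM, and it passed when its adjusted p from limma, taken over all genes tested in that table, was under 0.05. Tables were normalised separately and no test was made across them.

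Most of the splicing factor genes that passed were lower in CabZ KO than in CabZ Het 2-cell embryos. Of 46 tested, 26 fell and 4 rose, where 30.9% of all 7798 genes tested fell and 25.2% rose. As shares, 56.5% of the splicing factor genes fell and 8.70% rose. More than 2-fold changes were seen for 12 that fell and 1 that rose (20.4% and 16.9% of all genes). The median log2FC was -0.73, beside -0.11 over all genes, and 28 of the 46 did not overlap between the groups (51.0% of all genes). Of the 46, 5 were under 1 FPKM in the mean of 1 group, and 4 of those passed, among them Lsm14b, Prpf18 and Prpf4b. Such genes were tested because of the group in which they were high, so their calls carry little. Another 11 listed genes were below the level tested. With no filter on low levels, 26 of 57 fell and 6 rose, and the share of all genes under that setting was not counted. When every library was set to the same median level, 22 fell and 6 rose against a background of 25.2% lower and 32.0% higher, with medians of -0.49 and 0.13. All levels are relative to the other RNA in the library, so a loss of RNA per embryo and a different mix of embryos in the pool cannot be told apart. Of 10 oocyte markers tested, 8 rose in the same CabZ KO embryos, and the summed oocyte marker level was 1200 to 2900 FPKM in KO libraries and 1637 to 2002 FPKM in Het libraries. The granulosa list summed to 5.06 to 12.6 FPKM in KO and 2.74 to 5.15 FPKM in Het libraries, most of it Vim. The part of either list in the result was not tested.

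**Figure D1:**
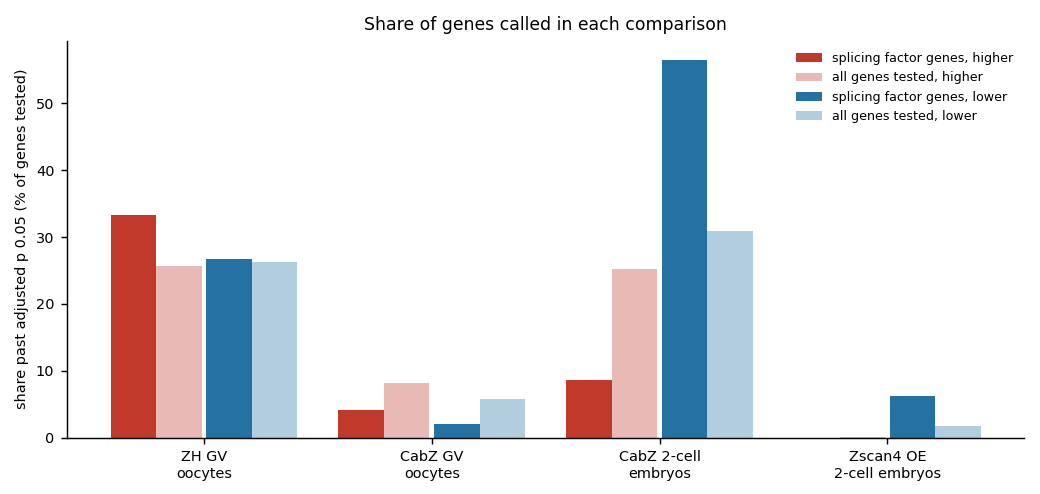
Share of genes (% of genes tested, vertical axis) that passed an adjusted p of 0.05 in each of the 4 comparisons, for splicing factor genes (dark bars) and all genes tested (light bars), red where higher and blue where lower in KO or Zscan4 OE. In CabZ 2-cell embryos 56.5% of the splicing factor genes were lower against 30.9% of all genes, while in the GV oocyte comparisons the dark and light bars lay closer.

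Sm and U snRNP genes fell in 7 of 11 cases and none rose. Snrpa, a protein of the U1 particle, was at 13.5, 29.3, 35.8 and 15.6 FPKM in the 4 CabZ Het libraries and at 7.24, 4.13, 5.45 and 2.71 FPKM in the 4 CabZ KO libraries (log2 fold change -2.01 ± 0.36, adjusted p = 0.00143). Every KO library lay under every Het library, although the Het values themselves were widely spread. Snrpd2, an Sm ring protein, was at 50.8, 57.6, 71.4 and 51.1 FPKM in Het and 20.9, 21.7, 18.3 and 7.79 FPKM in KO embryos (log2 fold change -1.77 ± 0.31, adjusted p = 0.00132). All 4 KO values were lower, and the last of them was less than the others. Snrpc, a U1 protein that helps the particle to pair with the 5′ splice site, was at 18.3, 24.3, 20.4 and 18.2 FPKM in Het and 6.68, 6.51, 8.58 and 4.4 FPKM in KO embryos (log2 fold change -1.52 ± 0.21, adjusted p = 0.000466). Its groups were again apart, the highest KO value lying under the lowest Het value. Snrpb, Snrpd1, Snrpd3 and Snrpa1, a U2 protein, fell by 0.84 to 1.24 on the log2 scale, the groups of Snrpb and Snrpd3 overlapping. The other Sm ring genes and Snrpb2, its partner on U2 RNA, did not pass, with log2FC of -0.25 for Snrpe, -0.06 for Snrpf, 0.32 for Snrpg and 0.17 for Snrpb2. Snrpa and Snrpd2 each have 2 near-identical copies elsewhere in the genome, Snrpc has 3, and Snrpa also shares 327 bases of exon with BC024978, so their reads could be split by the counting.

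In the SF3A and SF3B group 4 of 6 genes tested fell and none rose. Sf3b6, the small SF3B subunit known as p14 that lies near the branch point adenosine, was at 39.8, 53.6, 69.6 and 46 FPKM in CabZ Het and 9.44, 11.3, 17.1 and 8.15 FPKM in CabZ KO embryos. The lowest Het library held more than 2 times the level of the highest KO library, and the means, 52.3 ± 12.8 and 11.5 ± 3.93 FPKM (s.d., n = 4 each), differed 4.55-fold (log2 fold change -2.11 ± 0.26, adjusted p = 0.000314). Sf3a3 (-0.97 ± 0.18), Sf3b4 (-0.85 ± 0.22) and Sf3b5 (-0.78 ± 0.20, from 70.7 to 41.6 FPKM) fell as well. Sf3b1, the large scaffold subunit that grips the branch site, had groups that did not overlap but did not pass (log2 fold change -0.47 ± 0.20, adjusted p = 0.0723), nor did Sf3b2 (log2 fold change -0.28 ± 0.20, adjusted p = 0.264). No near-identical copy or overlapping exon was found for Sf3b6.

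SR protein genes fell in 6 of 9 cases tested and none rose. Srsf7 was at 49.9, 54, 68.3 and 37.7 FPKM in CabZ Het and 17.7, 10.2, 12.1 and 7.69 FPKM in CabZ KO embryos, or 52.5 ± 12.6 against 11.9 ± 4.26 FPKM (mean ± s.d.), a ratio of 4.41. The groups did not overlap (log2 fold change -2.08 ± 0.27, adjusted p = 0.000368). Srsf5 was at 57.8, 76.4, 83.8 and 52.4 FPKM in Het and 24.6, 23.5, 33.5 and 14.7 FPKM in KO embryos (log2 fold change -1.48 ± 0.27, adjusted p = 0.0016), also without overlap, and has 1 near-identical copy. Srsf1, the founding SR protein, fell from 22 ± 5.98 to 7.57 ± 2.62 FPKM (log2 fold change -1.44 ± 0.26, adjusted p = 0.00172). Srsf2, Srsf10 and Srsf11 fell by 0.95, 0.66 and 0.84 on the log2 scale. The other SR genes tested did not pass, with log2FC of -0.20 ± 0.26 for Srsf9, -0.07 ± 0.25 for Srsf3 and 0.05 ± 0.18 for Srsf6.

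LSm genes were divided, with 3 of 12 lower and 4 higher, and held all 4 splicing factor genes that rose. As background, Lsm2 to Lsm7 are shared by both LSm rings, Lsm8 closes the nuclear ring that binds U6 RNA, and Lsm1 closes the cytoplasmic ring that binds the ends of mRNAs bound for decapping and decay. Lsm8 was at 23.6, 35.1, 37.7 and 31.9 FPKM in CabZ Het and 8.09, 12.6, 13.8 and 5.99 FPKM in CabZ KO embryos (log2 fold change -1.62 ± 0.27, adjusted p = 0.00116). Lsm1 was at 15.9, 7.83, 8.68 and 15.9 FPKM in Het and 35.9, 35.7, 36.6 and 43.4 FPKM in KO embryos (log2 fold change 1.63 ± 0.25, adjusted p = 0.000753), 3.14-fold higher in the means. The subunits particular to each ring therefore differed in opposite directions, each without overlap between the groups. Of the shared subunits, Lsm2 fell (-0.86 ± 0.23), Lsm3 (0.72 ± 0.26, groups overlapping) and Lsm6 (0.93 ± 0.18) rose, and Lsm4 (0.53 ± 0.28), Lsm5 (-0.33 ± 0.33) and Lsm7 (-0.50 ± 0.25) did not pass. Lsm6 was at 5.41, 5.36, 6.23 and 6.56 FPKM in Het and 11.5, 10.6, 10.7 and 16.1 FPKM in KO embryos. Lsm14b, which binds stored mRNA in oocytes, was at 0.729 FPKM in Het and 2.15 FPKM in KO embryos (log2 fold change 0.85 ± 0.21, adjusted p = 0.00814) and reached the level tested through the KO group alone. Lsm12 fell (-1.16 ± 0.19) and Lsm14a did not pass (0.02 ± 0.15). Lsm10, a ring protein of the U7 particle that trims histone mRNA, was at 125 ± 30.7 FPKM in Het and 167 ± 26.4 FPKM in KO embryos and did not pass (adjusted p = 0.131). Lsm6 has 3 near-identical copies, Lsm5 and Lsm7 have 2 each, and Lsm3 overlaps another gene over 174 exonic bases, whereas Lsm1 and Lsm8 have neither.

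Prpf genes fell in 6 of 8 cases tested and none rose. Prpf38a, a factor needed for spliceosome activation, was at 15.9, 33.2, 33.5 and 22 FPKM in CabZ Het and 9.27, 10.3, 13.9 and 6.26 FPKM in CabZ KO embryos (log2 fold change -1.30 ± 0.30, adjusted p = 0.00512), with no overlap. Prpf38b (-0.91 ± 0.24, from 6.19 to 2.92 FPKM) and Prpf4 (-0.62 ± 0.22, from 2.19 to 1.08 FPKM) fell too. Prpf18, at 2.41 FPKM in Het and 0.602 FPKM in KO embryos (-1.05 ± 0.22), and the kinase Prpf4b, at 2.14 and 0.702 FPKM (-0.87 ± 0.18), passed but reached the level tested through the Het group alone. Prpf31 (-0.50 ± 0.23) and Prpf39 (0.07 ± 0.20) did not pass. Prpf8, the core protein of the U5 particle, was under the level tested, at 1.28 FPKM in Het and 0.564 FPKM in KO embryos.

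**Figure D2:**
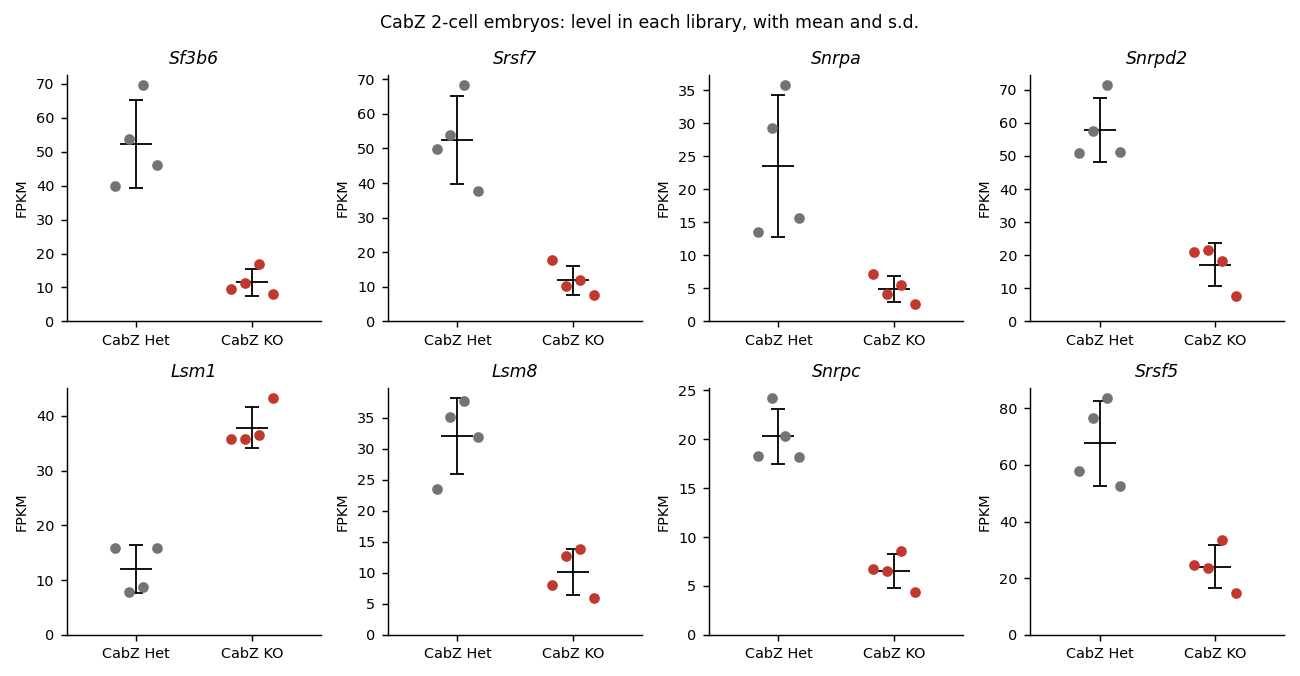
FPKM in each of the 4 CabZ Het (grey points) and 4 CabZ KO (red points) 2-cell libraries for the 8 splicing factor genes with the largest changes without overlap; horizontal bars are means and error bars s.d. Lsm1 was higher in every KO library and the other 7 genes were lower in every KO library, Sf3b6 falling from a mean of 52.3 to 11.5 FPKM.

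Other spliceosome genes, from lists that held none of the 58, moved mostly downward in the same embryos. Of 103 tested, 52 fell and 4 rose, or 50.5% and 3.88% against 30.9% and 25.2% of all genes, with a median log2FC of -0.57. The U1, U5, tri-snRNP and minor spliceosome list fell in 12 of 17 cases and rose in 1, led by Zmat5, a protein of the minor U11/U12 particle (6.33 to 0.465 FPKM, log2 fold change -2.29 ± 0.22, adjusted p = 0.000177), with Sart1 higher (0.59 ± 0.16). The SMN complex and snRNP assembly list fell in 9 of 12 and rose in 1, with Clns1a, the chaperone pICln that holds Sm proteins before ring assembly, at -2.05 ± 0.35 and Gemin7 at 0.50 ± 0.17. In the Prp19 complex and activation list 12 of 25 fell and none rose (Bud31, -1.47 ± 0.19). Falls were counted for 9 of 22 hnRNP genes (Hnrnpa2b1, -1.64 ± 0.22), with 2 rises (Pcbp2, 0.68 ± 0.16), for 4 of 10 exon junction complex genes (Rbm8a, -1.92 ± 0.25), for 3 of 10 U2 and branch site genes (Ddx46, -0.98 ± 0.16) and for 3 of 7 SR partners and kinases (Tra2b, -1.23 ± 0.20).

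The same genes were set beside their levels in CabZ GV oocytes, as a description only because the tables were normalised separately. Over the 56 listed in both tables the median difference between 2-cell and GV means was 0.30 in CabZ Het and -0.24 in CabZ KO on the log2(FPKM + 1) scale. The sets that follow were chosen by their 2-cell difference, which itself tends to raise the Het and lower the KO value of genes that fell. In CabZ Het the 26 genes that fell in KO embryos stood higher at the 2-cell stage than at the GV stage in 21 cases, with a median difference of 0.92, and 13 were more than 2-fold higher. In CabZ KO 13 of the 26 stood higher and 13 lower, with a median difference of -0.12. Srsf7 was at 6.75 FPKM in Het GV oocytes and 52.5 in Het 2-cell embryos, and at 7.99 and 11.9 FPKM in KO. Sf3b6 went from 5.44 to 52.3 FPKM in Het and from 6.21 to 11.5 FPKM in KO, and Lsm8 from 1.59 to 32.1 and from 1.72 to 10.1 FPKM. These 3 stood higher at the 2-cell stage in both genotypes, by less in KO. Snrpd2 differed little between stages in Het (45.3 and 57.7 FPKM) and was lower at the 2-cell stage in KO (53 and 17.2 FPKM). Among the genes that rose in KO embryos, Lsm3 stood at 70.1 FPKM in Het GV oocytes and 8.83 in Het embryos, beside 68.2 and 15.9 FPKM in KO. Lsm14b stood at 4.23 and 0.729 FPKM in Het and 4.11 and 2.15 in KO, so both were lower in embryos than in oocytes of either genotype, with the smaller gap in KO. Lsm1 instead was higher at the 2-cell stage in both, at 5.33 and 12.1 FPKM in Het and 8.15 and 37.9 FPKM in KO. GFP 2-cell embryos, made by activation and listed in a separate table, held 3.92 FPKM of Srsf7, 3.78 of Sf3b6 and 2.51 of Lsm8, all under the CabZ Het 2-cell levels.

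**Figure D3:**
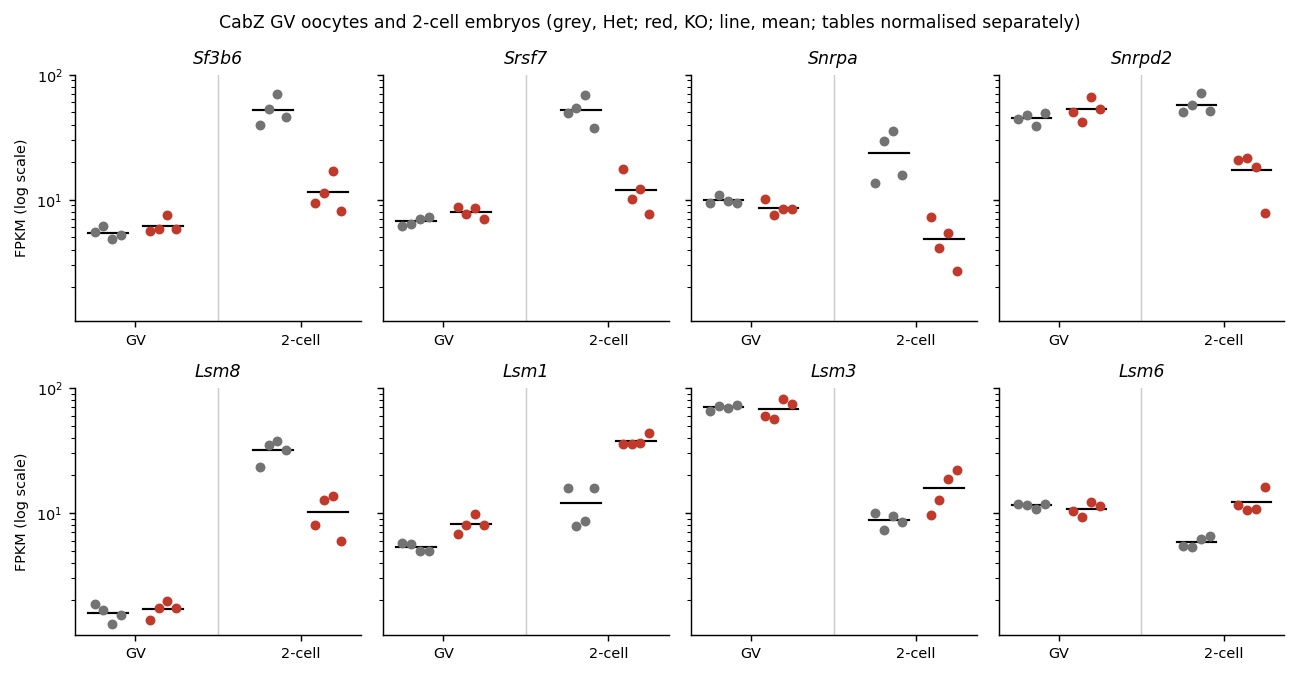
FPKM (log axis) in each CabZ Het (grey) and CabZ KO (red) library at the GV and 2-cell stages for 8 splicing factor genes, 4 libraries a group, with lines at the means; the stages come from tables normalised separately. Sf3b6, Srsf7 and Lsm8 were far higher at the 2-cell stage in Het than in KO, while Lsm3 and Lsm6 were lower at the 2-cell stage in Het than in KO.

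To show the start regions of genes whose levels moved apart in CabZ KO embryos, 4 RefSeq promoters (GRCm38.p6, 250 bases before to 50 after the annotated start, 5′ to 3′ on the gene's strand) are printed: Sf3b6, Srsf7 and Lsm8, the 3 without near-identical copies that fell most among those with an entry, and Lsm6, which rose. Capitals mark matches on either strand to CCGGAAG (a core site of ETS factors), GGGCGG (the GC box) or CCAAT (the NF-Y site), none of which overlapped here.
Sf3b6 (chr12:4817358-4817657, plus strand): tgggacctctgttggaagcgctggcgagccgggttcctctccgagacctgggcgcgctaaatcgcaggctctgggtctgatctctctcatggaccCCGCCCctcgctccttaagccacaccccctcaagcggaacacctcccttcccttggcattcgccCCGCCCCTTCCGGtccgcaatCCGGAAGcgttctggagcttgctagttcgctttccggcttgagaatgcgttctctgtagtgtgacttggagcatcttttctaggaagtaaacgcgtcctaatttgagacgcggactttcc
Srsf7 (chr17:80207256-80207555, minus strand): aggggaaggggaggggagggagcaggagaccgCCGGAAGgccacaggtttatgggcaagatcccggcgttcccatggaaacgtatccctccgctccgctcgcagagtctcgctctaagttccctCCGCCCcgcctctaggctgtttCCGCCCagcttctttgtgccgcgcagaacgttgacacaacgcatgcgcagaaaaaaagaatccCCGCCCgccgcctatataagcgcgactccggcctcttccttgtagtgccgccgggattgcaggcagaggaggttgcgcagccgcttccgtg
Lsm8 (chr6:18848385-18848684, plus strand): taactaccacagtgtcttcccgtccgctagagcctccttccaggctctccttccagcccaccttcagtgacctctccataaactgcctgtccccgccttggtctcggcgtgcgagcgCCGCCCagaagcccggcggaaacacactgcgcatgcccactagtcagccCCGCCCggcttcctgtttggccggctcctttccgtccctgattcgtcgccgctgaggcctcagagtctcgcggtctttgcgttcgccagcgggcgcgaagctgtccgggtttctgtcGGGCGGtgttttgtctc
Lsm6 (chr8:78821103-78821402, minus strand): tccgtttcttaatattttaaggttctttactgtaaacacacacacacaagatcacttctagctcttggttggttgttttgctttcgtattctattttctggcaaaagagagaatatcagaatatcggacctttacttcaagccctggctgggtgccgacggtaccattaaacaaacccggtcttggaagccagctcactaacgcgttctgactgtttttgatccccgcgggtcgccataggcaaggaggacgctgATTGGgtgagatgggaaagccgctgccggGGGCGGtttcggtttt
The sequences of the 3 genes that fell were 59.0%, 62.7% and 64.0% G or C and that of Lsm6 47.7%. RefSeq held promoters for 49 of the splicing factor genes. CCGGAAG was found in 19 of the 49, beside 8.86% of the 32851 promoters in the table, GGGCGG in 34 of 49 (35.7% of all) and CCAAT in 21 of 49 (37.4% of all). TATAAA was found in 4 of 49 (13.6% of all) and TGCACAC, a motif described for Zscan4, in 3 (4.4% of all). Of the 19 genes with an entry that fell in CabZ KO embryos, 7 held CCGGAAG and 16 held GGGCGG. Of the 3 with an entry that rose, none held CCGGAAG and 3 held GGGCGG. A splicing factor gene was counted when any of its promoters held the match, whereas the shares of all are per promoter. Genes with several promoters had more chances of a match, so counts and shares are not like for like. A match is one of letters only.

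The 4 genes lie at chr12:4817544-4827659 (Sf3b6), chr17:80200080-80207307 (Srsf7), chr6:18848579-18855751 (Lsm8) and chr8:78804865-78821140 (Lsm6) in GRCm38, from GENCODE M21, and Lsm1 at chr8:25785288-25803975. Open chromatin at the starts of splicing factor genes was read from ATAC-seq peaks of GV oocytes, with a gene counted when a peak summit lay within 500 bp of its start. In CabZ Het oocytes 6, 20 and 27 of 57 genes had one in the 3 libraries, against 8.97%, 17.3% and 32.5% of all 14131 protein-coding genes, and in CabZ KO oocytes 5, 3 and 2 had one, against 12%, 3.74% and 4.88%. The libraries differed widely in peaks called, 43399, 67074 and 111327 in Het and 46070, 19160 and 29600 in KO, so the genotypes were not compared. In all 3 Het libraries 3 genes had a peak (Lsm10, Prpf38b and Snrpg), or 5.26% against 3.35% of all genes, and in all 3 KO libraries 0 had one, against 0.474%. Without Het library A the first count was 13, or 22.8% against 11.8% of all genes. Without Het library B it was 5, or 8.77% against 6.14%. Without KO library A or C the second was 1, or 1.75% against 0.863% and 1.55% of all genes. At the Srsf7 start 1 of 3 Het libraries had a peak (fold enrichment 4.69) and no KO library did, at Sf3b6 likewise 1 Het library (3.64), and at Lsm8 and Lsm6 none in either genotype.

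ZH KO GV oocytes showed changes in both directions, at shares near those of other genes. Of 45 splicing factor genes tested, 15 rose and 12 fell against ZH Het oocytes, where 25.6% of all 5792 genes tested rose and 26.3% fell. That is 33.3% higher and 26.7% lower, with a median log2FC of 0.04 beside -0.04 over all genes, and 26 did not overlap between the groups (46.9% of all genes). More than 2-fold, 5 rose and 1 fell (10.5% and 7.2% of all genes). The balance of directions moved with the scaling. With all libraries set to the same median, 10 rose and 15 fell (20.6% and 34.3% of all genes, whose median moved to -0.19), and with levels scaled to the reads on listed genes, 20 rose and 10 fell of 49 tested (30.9% and 20.4%). Of the 45, 5 were under 1 FPKM in the mean of 1 group, among them Lsm8, Prpf3, Prpf8 and Sf3b2, and all 5 passed, which follows in part from the filter, while 13 more were below the level tested. Fold changes in this table also ran with transcript length. Across all genes Spearman's rho between exonic length and log2FC was -0.30, and across the 45 it was -0.38. The 15 that rose had a median exonic length of 3152 bases and the 12 that fell one of 5898.5 bases. Of 11 oocyte markers tested, 4 fell and 1 rose, with summed levels of 4184 to 4515 FPKM in ZH Het and 2883 to 3638 FPKM in ZH KO libraries. The 13 granulosa and cumulus markers listed, none of which reached the level tested, summed to 0.551 to 0.823 FPKM in Het and 1.88 to 2.82 FPKM in KO libraries. The part of length or of either marker list in the result was not tested.

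By role, 4 of 11 Sm and U snRNP genes rose and 1 fell. Snrpd2 was at 24.5, 19.8, 25.8 and 32.6 FPKM in ZH Het and 66.2, 44.8, 60.8 and 55.5 FPKM in ZH KO oocytes (log2 fold change 1.12 ± 0.18, adjusted p = 0.000744), and Snrpa1 at 9.6, 8.09, 8.46 and 10.3 and 25.1, 17.1, 18.2 and 21.2 FPKM (log2 fold change 1.07 ± 0.15, adjusted p = 0.000353). For both genes all KO libraries were above all Het libraries. Snrpb (0.75 ± 0.19) and Snrpd3 (0.43 ± 0.15) also rose, while Snrpa fell from 5.24 ± 0.112 to 3.84 ± 0.603 FPKM (log2 fold change -0.38 ± 0.12, adjusted p = 0.0269), a fall of under 2-fold in which the groups did not overlap. Snrpa1 shares 148 exonic bases with an overlapping gene.

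SF3A and SF3B genes rose in 2 and fell in 3 of 7 cases. Sf3b6 was at 2.33, 1.95, 4.07 and 3.46 FPKM in ZH Het and 11.9, 6.74, 6.93 and 8.14 FPKM in ZH KO oocytes (log2 fold change 1.26 ± 0.22, adjusted p = 0.00129), with every KO library above every Het library, and Sf3b5 rose by less (0.54 ± 0.17). Sf3b4, which has 1 near-identical copy and an overlapping gene, fell from 7.03 ± 0.736 to 4.42 ± 1.46 FPKM (log2 fold change -0.61 ± 0.19, adjusted p = 0.0258), and Sf3a1 fell too (-0.52 ± 0.15), while Sf3b2, which was under 1 FPKM in the KO mean, was at -0.58 ± 0.16. The SR group had 2 of 8 higher and 1 lower. Srsf7 was at 4.82, 5.44, 6.19 and 5.78 FPKM in Het and 9.59, 10.6, 11.3 and 10.6 FPKM in KO (log2 fold change 0.81 ± 0.12, adjusted p = 0.000443), and Srsf6 rose as well (0.53 ± 0.14). Srsf2, whose gene shares up to 460 exonic bases with Mettl23 or Mfsd11, was at 27.2, 30.1, 28.4 and 23.3 FPKM in Het and 9.93, 21.9, 16.6 and 13 FPKM in KO (log2 fold change -0.84 ± 0.21, adjusted p = 0.00914), lower in all 4 KO libraries.

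LSm genes rose in 6 and fell in 3 of 12 cases. Lsm1 was at 2.39, 2.34, 4.5 and 4.28 FPKM in ZH Het and 10.5, 7.0, 10.5 and 8.65 FPKM in ZH KO oocytes (log2 fold change 1.24 ± 0.21, adjusted p = 0.00108), Lsm5 at 2.45, 2.98, 5.21 and 2.89 and 10.9, 5.68, 7.53 and 8.46 FPKM (log2 fold change 1.07 ± 0.22, adjusted p = 0.00337), and Lsm4 at 8.32, 6.32, 6.29 and 8.61 and 14.5, 14.3, 14.3 and 15.3 FPKM (log2 fold change 0.91 ± 0.13, adjusted p = 0.000483). None of these 3 overlapped between genotypes, and the KO values of Lsm4 lay within about 1 FPKM of each other. Lsm14b went the other way, at 4.31, 2.74, 4.98 and 3.3 FPKM in Het and 1.5, 1.37, 1.3 and 1.19 FPKM in KO (log2 fold change -1.02 ± 0.16, adjusted p = 0.000688). Lsm7 (0.76 ± 0.17) and Lsm2 (0.44 ± 0.16) rose, and Lsm3 (-0.62 ± 0.15) and Lsm14a (-0.59 ± 0.11) fell. Lsm8, at 0.947 FPKM in Het and 1.57 FPKM in KO (0.40 ± 0.14), passed but reached the level tested through the KO group alone. Among Prpf genes 4 of 7 fell, Prpf38b most (3.06 to 1.57 FPKM, log2 fold change -0.67 ± 0.15, adjusted p = 0.00544), and Prpf39 rose (1.06 to 1.67 FPKM, log2 fold change 0.38 ± 0.11, adjusted p = 0.0197).

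**Figure D4:**
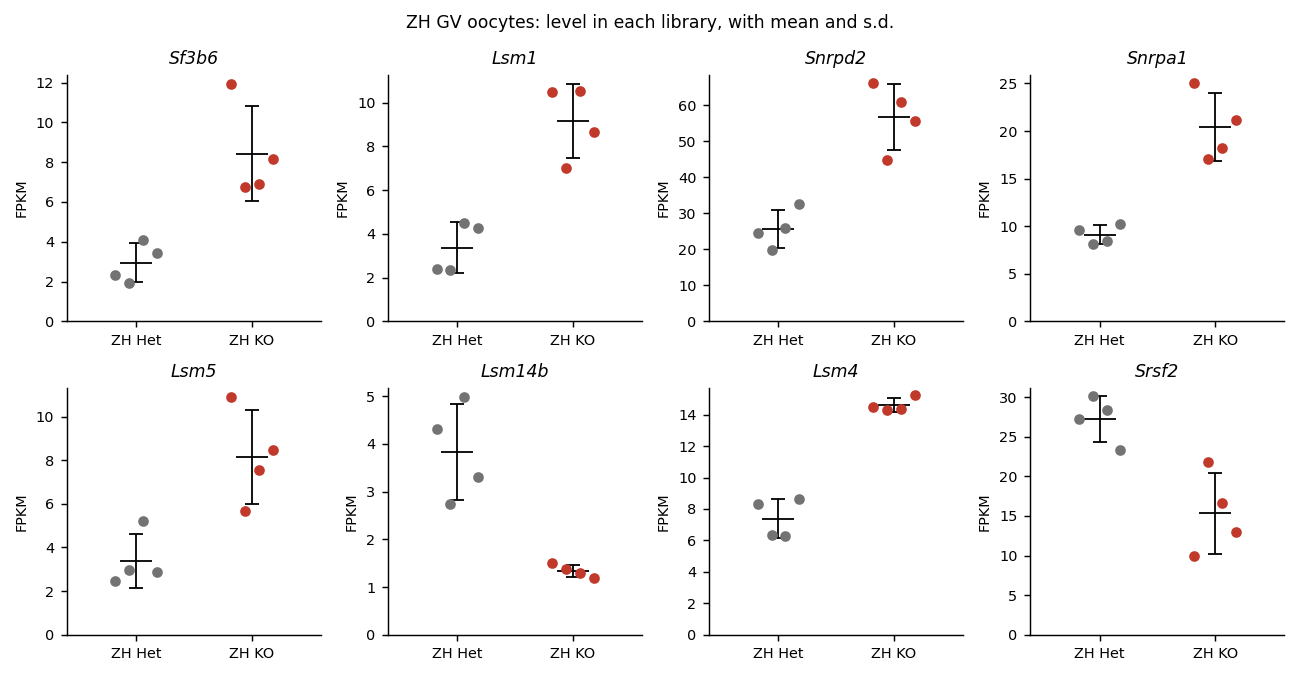
FPKM in each of the 4 ZH Het (grey points) and 4 ZH KO (red points) GV oocyte libraries for the 8 splicing factor genes with the largest changes without overlap; horizontal bars are means and error bars s.d. Of the 8, 6 were higher in every KO library, among them Sf3b6 (means 2.95 and 8.43 FPKM), and Lsm14b and Srsf2 were lower.

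The other spliceosome lists had 13 higher and 26 lower of 87 tested in ZH KO oocytes, or 14.9% and 29.9% against 25.6% and 26.3% of all genes, with a median of -0.14. Zfp830 of the Prp19 and activation list fell most (log2 fold change -1.28 ± 0.27, adjusted p = 0.00356) and Wbp4 of the same list rose most (log2 fold change 0.90 ± 0.13, adjusted p = 0.000397), in a list of 22 with 4 higher and 10 lower. Pdcd7 of the minor particle (-1.24 ± 0.25) and Snu13 of the tri-snRNP (0.65 ± 0.14) marked the ends of a list with 6 lower and 3 higher of 14. The rest were Puf60 (-1.13 ± 0.30) and Phf5a (0.58 ± 0.15) among 9 U2 and branch site genes (2 lower, 1 higher), Magohb (-1.17 ± 0.12) and Rbm8a (0.68 ± 0.15) among 11 exon junction genes (3 lower, 1 higher), Clk3 (-0.90 ± 0.19) and Clk1 (0.77 ± 0.26) among 6 SR partners and kinases (3 lower, 1 higher), Hnrnpab (0.74 ± 0.13) and Hnrnpdl (-0.48 ± 0.15) among 17 hnRNP genes (3 higher, 1 lower) and Clns1a (-0.35 ± 0.12) among 8 snRNP assembly genes (1 lower).

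Few splicing factor genes passed between CabZ KO and CabZ Het GV oocytes. Of 49 tested, 2 rose and 1 fell, none by more than 2-fold (2.07% and 0.836% of all genes), where 8.2% of all 6339 genes tested rose and 5.73% fell. The groups did not overlap for 5 (20.6% of all genes), and the median log2FC was -0.02, as over all genes. Of the 49, 2 were under 1 FPKM in the mean of 1 group and neither passed, and 8 more were below the level tested. Lsm1 was at 5.72, 5.71, 4.95 and 4.95 FPKM in Het and 6.75, 8.03, 9.77 and 8.08 FPKM in KO oocytes (log2 fold change 0.52 ± 0.12, adjusted p = 0.016). Its lowest KO library was above its highest Het library. Srsf6 was at 1.36, 0.982, 1.14 and 0.985 FPKM in Het and 2.02, 2.05, 1.66 and 1.47 FPKM in KO (log2 fold change 0.40 ± 0.11, adjusted p = 0.0397), and Lsm2 at 27.5, 26.4, 20.2 and 24.5 and 17.5, 17, 19 and 19.4 FPKM (log2 fold change -0.41 ± 0.12, adjusted p = 0.0426). Neither gene overlapped between the groups. Leaving out 1 library at a time gave 0 to 2 calls, with 0 when CabZ Het replicate 4 was left out, and over all alternatives the adjusted p of limma reached 0.0563 for Lsm1, 0.134 for Lsm2 and 0.114 for Srsf6. Genes with large changes in CabZ KO 2-cell embryos had values here of 0.16 ± 0.12 for Sf3b6, 0.21 ± 0.10 for Srsf7, -0.18 ± 0.11 for Snrpa, 0.21 ± 0.15 for Snrpd2, -0.23 ± 0.10 for Snrpc, 0.07 ± 0.11 for Lsm8 and -0.03 ± 0.14 for Srsf5, none of which passed. Those with large changes in ZH KO oocytes were at 0.08 ± 0.12 for Snrpa1, 0.07 ± 0.16 for Lsm5, -0.17 ± 0.09 for Lsm4, -0.04 ± 0.10 for Lsm14b and -0.11 ± 0.15 for Srsf2, also without passing. Of 100 genes in the other spliceosome lists 1 rose, Tardbp (log2 fold change 0.79 ± 0.11, adjusted p = 0.00171), and 3 fell, namely Ppil3 (log2 fold change -1.21 ± 0.11, adjusted p = 0.000179), Magohb (-0.43 ± 0.10) and Rnpc3 (-0.39 ± 0.10).

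Embryos labelled Zscan4 OE had 2 splicing factor genes lower than GFP embryos and none higher of 32 tested, where 1.7% of all 4293 genes tested were lower and 0.0932% higher. Past 2-fold it was 1 gene lower, Srsf7, and 0 higher (1.42% and 0.0233% of all genes). The groups did not overlap for 8 of the 32 (18.2% of all genes). Srsf7 was at 4.58, 4.91, 3.72 and 2.48 FPKM in the 4 GFP libraries and 1.25, 1.13 and 1.58 FPKM in the 3 Zscan4 OE libraries (log2 fold change -1.06 ± 0.21, adjusted p = 0.0446). Snrpd1, an Sm ring protein with 1 near-identical copy, was at 16.9, 16.5, 17.7 and 12.4 FPKM in GFP and 7.48, 6.81 and 8.71 FPKM in Zscan4 OE embryos (log2 fold change -0.95 ± 0.17, adjusted p = 0.0316). Both were separate between the groups. With no filter on low levels no gene of the set passed. Leaving out 1 library gave 0 calls without GFP A, B or C or without Zscan4 OE A or B, 1 without Zscan4 OE C and 3 without GFP D, and the adjusted p of limma reached 0.153 for Srsf7 and 0.117 for Snrpd1. All 11 Sm and U snRNP genes had negative log2FC, from -0.99 for Snrpb2 (adjusted p = 0.0556) to 0.00 for Snrpa, with a median of -0.25 beside 0.03 over all genes. Zscan4 OE library B stood apart, with 1521 RPM (reads scaled to library size) on these genes against 2246 and 2177 in the other two and 2518 to 2960 in GFP embryos. Without it, a summary added after seeing the data, 9 of 11 were negative and the median was -0.18. No member of the other spliceosome lists passed by limma among 71 tested, 12 of them having an unadjusted p under 0.05, and 24 splicing factor genes were under the level tested. Of the 32, 2 were under 1 FPKM in the mean of 1 group, and neither passed. In this table rho between exonic length and log2FC was 0.26 over all genes and 0.52 over the 32, and its part in the result was not tested. Values for genes named above were -0.39 ± 0.25 for Sf3b6, -0.21 ± 0.22 for Lsm1, -0.40 ± 0.16 for Lsm8, -0.34 ± 0.17 for Snrpd2, -0.20 ± 0.20 for Snrpa1, -0.25 ± 0.22 for Snrpc, 0.22 ± 0.17 for Srsf5, 0.39 ± 0.29 for Srsf2 and 0.02 ± 0.17 for Lsm2, none passing, while Lsm4, Lsm5, Lsm14b and Srsf6 were not tested.

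**Figure D5:**
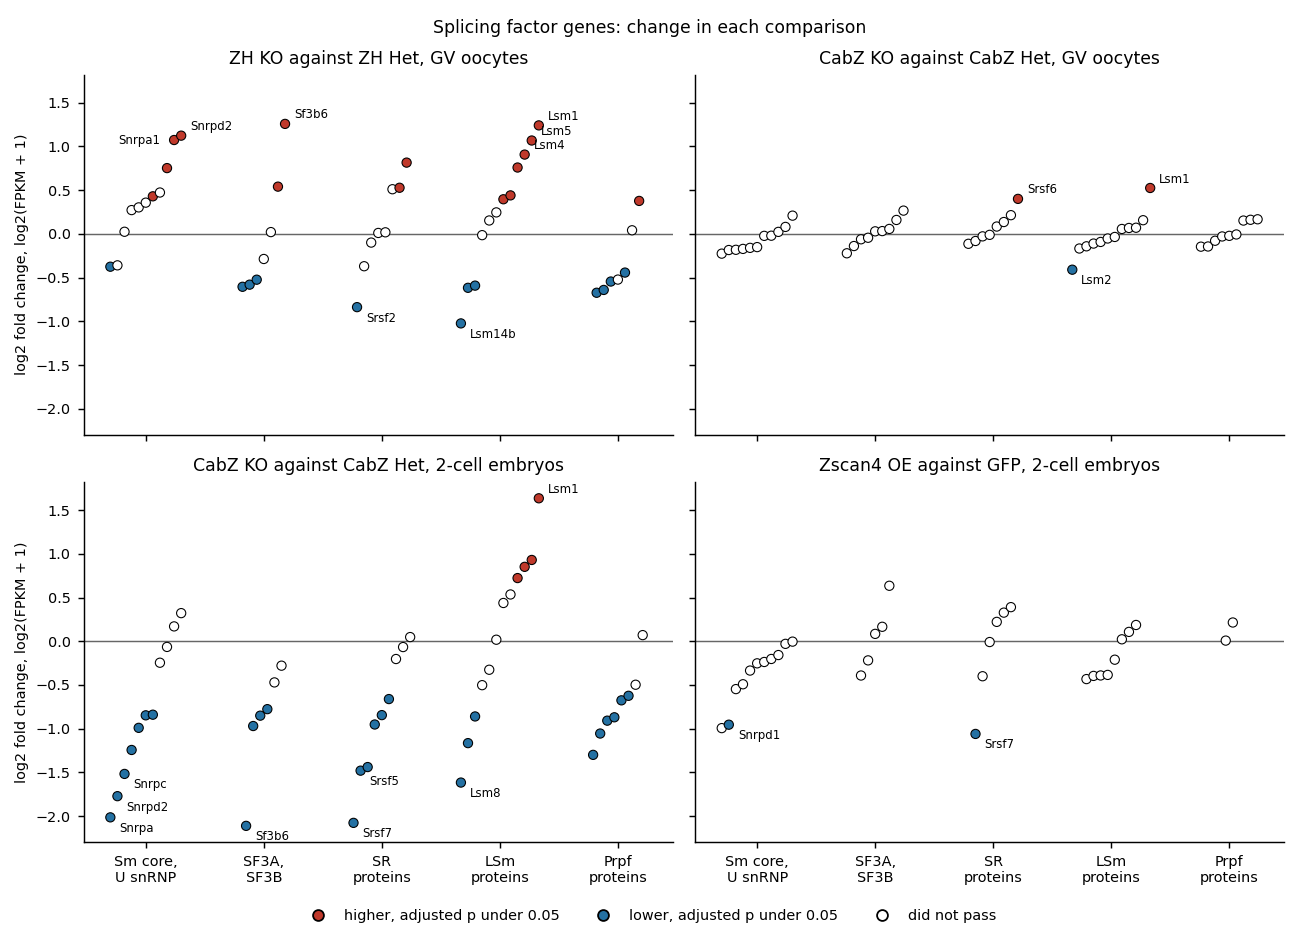
Log2 fold change on log2(FPKM + 1) (vertical axis) of every splicing factor gene tested, by role (horizontal axis), in the 4 comparisons; red and blue points passed an adjusted p of 0.05 as higher or lower, open points did not, and the largest changes are named. The CabZ 2-cell panel has 26 blue points and 4 red points, all 4 among LSm genes, and the CabZ GV panel has 3 coloured points.

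Side by side, 1 gene, Lsm1, passed as higher in each of ZH KO oocytes, CabZ KO oocytes and CabZ KO 2-cell embryos. A further 9 passed as higher in ZH KO oocytes and lower in CabZ KO 2-cell embryos, namely Lsm2, Lsm8, Sf3b5, Sf3b6, Snrpa1, Snrpb, Snrpd2, Snrpd3 and Srsf7, whereas 5 were lower in both, among them Prpf38b, Sf3b4, Snrpa and Srsf2, and 2, Lsm14b and Lsm3, were lower in ZH KO oocytes and higher in CabZ KO embryos. Among these, Lsm8 in the ZH table and Lsm14b in the CabZ 2-cell table were tested through 1 group alone. These tables share no library, and the difference between their effects was not tested. Over all genes tested, 25.6% rose and 26.3% fell in ZH KO oocytes, and 8.2% rose in CabZ KO oocytes. In CabZ KO 2-cell embryos 25.2% rose and 30.9% fell. The share of all genes with each combination of calls was not counted, so the counts above have no background of their own. Levels differed widely among the genes. Per kilobase of exon, Lsm10 was first in each of the 3 knockout tables, at 533 ± 74.7 (ZH Het GV), 665 ± 42.3 (CabZ Het GV) and 261 ± 63.8 (CabZ Het 2-cell) RPM, and Snrpe was first in GFP embryos at 609 ± 42.6, with Lsm10 at 283 ± 59.4. By FPKM over the whole gene the 3 highest were Lsm10, Sf3b5 and Snrpd2 in the ZH table, Lsm10, Lsm3 and Sf3b5 in CabZ GV oocytes, Lsm10, Sf3b5 and Lsm2 in CabZ 2-cell embryos and Lsm10, Snrpe and Snrpb2 in the Zscan4 table. Of these, Lsm10 passed in no comparison, at 0.25 ± 0.14, -0.14 ± 0.12, 0.44 ± 0.23 and -0.38 ± 0.31 in the order above. Summed over all splicing factor genes, levels were 6208 to 8450 RPM in CabZ Het and 4704 to 5174 in CabZ KO 2-cell embryos. In CabZ GV oocytes the sums were 5359 to 5857 RPM in Het and 5362 to 6043 in KO, so that those groups overlapped. In ZH oocytes the sums were 4346 to 5186 RPM in Het and 5340 to 6654 in KO. Listed genes held 74.2% to 74.7% of the FPKM total in ZH Het but 66.0% to 68.2% in ZH KO libraries. RPM therefore sets ZH KO higher relative to Het than the FPKM used in the tests. Sums on the FPKM scale were not compared.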

How the data were processed

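RNA-seq of pools of oocytes or embryos (Smart-seq2, unstranded) was trimmed with TrimGalore, aligned with STAR 2.5.3a to GRCm38 (mm10) and quantified in Partek Flow by the authors. The deposited Hira and Zscan4 tables hold FPKM over the whole gene span, plus 0.01 and 0.001. The values the authors deposited for Cabin1 behaved as a score, reads divided by the squared span and scaled per library plus 0.01, and FPKM were restored from them by subtracting the minimum, multiplying by the span and rescaling each library. ATAC-seq peaks were aligned with Bowtie2 2.3 and called by the authors with MACS2 in each library, and the deposited lists give a score, the fold enrichment (a ratio) and −log10 p and q values.

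Log2(FPKM + 1) was tested with limma 3.58.1 (R 4.3.3, empirical Bayes, no covariates) within each table, leaving out genes whose mean over all libraries was under 1 FPKM, with Benjamini-Hochberg adjustment over all genes tested. The test was also run on simulated data with known changes. Groups came from the labels. Genes were named by rule: per comparison up to 8 that passed without overlap, by size; the 3 highest levels per table; the largest change per role and direction; and, for each other list, the largest change per direction. Other genes of the set were given to account for each role, chosen after their values were seen, and not every gene is reported here by name. The members and lists were chosen with earlier results of these data known. Near-identical copies were found with BLAST 2.17.0 (at least 95% over 150 bases). Alternatives were the pseudocount, filters, scaling, a trended prior, a replicate block, a fold minimum and leaving out each library. Same-numbered libraries did not deviate together. Reads per gene, used for depth, for levels in RPM and for the Hira read count, were recovered from the smallest step between values. Of low values per library, 83.9% to 88.7% came out within 0.1 of a whole read, so depths and read counts are estimates.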

Additional observations from a re-analysis of the deposited data

Results flagged for a closer look

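In CabZ KO 2-cell embryos Lsm1 replicate 4 stood apart at 43.4 FPKM, whereas the other 3 KO libraries lay between 35.7 and 36.6 FPKM. It was the 1 library that stood apart among 40 groups of 4 examined, and chance alone sets a library apart in about 1 of 20 groups. Srsf10, an SR-like splicing factor, had a log2 fold change of 0.14 in CabZ GV oocytes, where every KO library was above every Het library, and of -0.66 in CabZ 2-cell embryos, where every KO library was below every Het library. The difference between the stages was not tested. Among the 42 splicing factor genes examined in both CabZ tables Srsf10 was the 1 with groups apart in opposite directions. It did not pass in CabZ GV oocytes and has 2 near-identical copies. Groups were apart for 20.6% of all genes tested in CabZ GV oocytes and 51.0% in CabZ 2-cell embryos. The share of all genes apart in opposite directions was not counted.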

How the results depend on the processing

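The number of splicing factor genes that passed was 27 in ZH GV oocytes, 3 in CabZ GV oocytes, 30 in CabZ 2-cell embryos and 2 in Zscan4 OE embryos. With a minimum mean of 5 FPKM it was 13 in ZH GV and 19 in CabZ 2-cell, where fewer genes were tested (23 and 29). With a minimum fold of 2 it was 6, 0, 13 and 1. In Zscan4 OE embryos a pseudocount of 0.1 gave 1 and no filter on low values gave 0. Leaving out 1 library at a time gave 20 to 30 in ZH GV, 0 to 2 in CabZ GV, 26 to 31 in CabZ 2-cell and 0 to 3 in Zscan4 OE. With the replicate number as a block the counts were 25, 0, 27 and 0. Shares of all genes were counted for the main, 2-fold and scaling settings only. Counts under the other settings, here and above, therefore have no background of their own. Same-numbered libraries correlated from -0.407 to 0.395 in ZH GV, -0.18 to 0.144 in CabZ GV, -0.052 to 0.125 in CabZ 2-cell and -0.162 to 0.148 in Zscan4 OE, so the numbers gave no pairing. The cause of these shifts was not tested. At a −log10 q of at least 10, splicing factor genes with a promoter peak in every CabZ Het library went from 3 to 0. At that cutoff 1 of all 14131 genes had such a peak. With 1 library left out they numbered 3 to 13, or 5.26% to 22.8%, against 4.24% to 11.8% of all genes. In CabZ KO the count went from 0 to between 0 and 1. With 1 KO library left out, 0.863% to 2.08% of all genes had a peak. Of 299 refits of the named genes, 262 kept direction and side of the threshold, 37 kept the direction and no longer passed (21 in CabZ GV and 16 in Zscan4 OE), and 0 reversed. CabZ KO 2-cell libraries were the shallowest, and depth limits genes under 1 FPKM, which were not tested.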

Other observations

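The ratio of Lsm1 to Lsm8 FPKM, of the subunits particular to the cytoplasmic and nuclear LSm rings, was looked at after their values were seen. In CabZ Het 2-cell embryos it was 0.223 to 0.673 and in CabZ KO 2-cell embryos 2.65 to 7.24. In CabZ GV oocytes it was 3.06 to 3.79 in Het and 4.63 to 4.94 in KO, and in ZH GV oocytes 2.80 to 4.31 in Het and 5.11 to 6.74 in KO. GFP embryos had 4.0 to 5.06 and Zscan4 OE embryos 5.12 to 6.66. The groups did not overlap in any of the 4 comparisons, which is a description, since the pair was chosen for its values. The scale of the ratio depends on the 2 gene spans.

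Reads on SR protein genes were 1418 to 1853 RPM (reads scaled to library size) in CabZ Het and 611 to 912 in CabZ KO 2-cell embryos, and reads on SF3A and SF3B genes 957 to 1355 and 407 to 553 RPM. Reads on LSm genes were 1347 to 1688 RPM in Het and 1753 to 2273 RPM in KO embryos, but without Lsm1, a sum added after seeing the data, they were 1051 to 1484 and 1082 to 1463 RPM, with the groups overlapping.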
